A study of Mus musculus with 12 samples.

Results

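The endoplasmic reticulum (ER) stress and unfolded protein response genes were followed here in donor CD4+ T cells dividing in a graft-versus-host response. The 32 genes were taken as a named list of ER chaperones, stress sensors, transcription factors, integrated stress response targets and degradation factors. All 32 were measured, among 19938 genes in all, each by the single-symbol probe set with the highest mean.

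The values were log2 intensities on 12 gene expression arrays, 4 for each of 3 groups. Spleen cells of C57Bl/6 donors were stained with CFSE, a dye that is diluted at each division, and given by vein to B6D2F1 hosts aged, like the donors, 10 to 12 weeks. On day 2 (48 hr), donor cells with CD4 and at least 2 divisions by dye dilution were taken from spleen and lymph node, with beads against CD4 and then flow sorting. All groups shared this transfer, so no group shows T cells outside a graft-versus-host response. The vehicle hosts were dosed on days 0 and 1. The TCDD hosts received 15 µg/kg by the intraperitoneal route on day 0 only, and the Cl-BBQ hosts 2 mg/kg on days 0 and 1. TCDD, a dioxin, and Cl-BBQ are both ligands of AhR, the aryl hydrocarbon receptor, which acts on transcription once bound. The compounds differed in dose and schedule, and TCDD and vehicle in schedule. The hosts and not the cells were dosed, so the cells' own exposure was not measured.

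The ER folds secreted and membrane proteins. When unfolded proteins build up there, 3 sensors act: IRE1 (gene Ern1) splices the Xbp1 message, PERK (Eif2ak3) slows translation and favours that of Atf4, and ATF6 is cut to release a transcription factor. Their targets are chaperones, disulfide isomerases and the factors that send misfolded proteins to the proteasome (ER-associated degradation, ERAD). The Atf4 branch can also be started by amino acid shortage, as the integrated stress response. Dividing T cells are known to enlarge their ER as they begin to make cytokines. The arrays measured message levels, which do not show Xbp1 splicing, ATF6 cleavage or Atf4 translation.

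Cyp1b1, a known AhR target, was 11.2-fold higher with TCDD than with vehicle (limma, adjusted p = 3.6e-05) and 2.18 times vehicle with Cl-BBQ (adjusted p = 0.298). Its log2 intensity ran from 5.93 to 8.24 in Cl-BBQ and from 6.25 to 6.57 in vehicle arrays, so that the lowest Cl-BBQ array lay below all vehicle arrays. Array medians ran from 7.11 to 7.24. The mean level of 11 CD4 T cell markers lay between 12.31 and 12.48 on every array. The mean of 2 CD8 T cell markers was 8.36 to 9.18 in vehicle, 8.37 to 8.70 in TCDD and 8.32 to 8.54 in Cl-BBQ arrays. Of these, Cd8a ran from 6.96 to 8.47 in vehicle arrays, and neither marker was called against vehicle. The mean of 7 B cell markers was 6.83 to 7.12 in vehicle, 6.70 to 6.84 in TCDD and 6.74 to 6.87 in Cl-BBQ arrays. With TCDD, Cd22 (1.94-fold, adjusted p = 0.00364) and Bank1 (1.40-fold, adjusted p = 0.0392) of these 7 were called lower, and 3 of the 7 lay above 0. Of 9 plasma cell markers, a cell type rich in ER, Prdm1 was called higher with TCDD (2.33-fold, adjusted p = 0.00122), and T cells express this gene too. The mean of these 9 markers was 7.35 to 7.40 in vehicle, 7.43 to 7.51 in TCDD and 7.33 to 7.43 in Cl-BBQ arrays. With TCDD, 7 of the 9 were below 0 (median log2 difference −0.03), and Pou2af1 was lower on all TCDD arrays (−0.31, adjusted p = 0.117). Their part in the values below was not tested.

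No ER stress gene passed the test of either compound against vehicle, and the differences were small. With TCDD, 0 of 32 were called at an adjusted p under 0.05, against 1.24% of all genes. At an unadjusted p under 0.05 there were 5 (Atf6, Derl2, Trib3, Canx and Pdia4), all higher with TCDD, where 8.69% of all genes were below it. With Cl-BBQ, 0 of 32 were called, against 0.196% of all genes, and Atf6 and Trib3 were below the unadjusted threshold, against 7.91% of all genes. The median log2 difference of the list was 0.05 with TCDD and 0.02 with Cl-BBQ, where the median of all genes was 0.00 and 0.01. Of the 32 genes, 24 were above 0 with TCDD (75.0%, against 52.1% of all genes) and 20 with Cl-BBQ (62.5%, against 54.8%). Both comparisons share the vehicle arrays.

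The intervals bound what these arrays allow. With TCDD, the 95% intervals of 30 of the 32 log2 differences lay within 0.5 of 0, the exceptions being Atf6 and Asns. The upper bound for Atf6 was 1.42-fold higher and the lower bound for Asns was 1.56-fold lower. With Cl-BBQ, 31 of 32 intervals lay within 0.5, and Asns again had the widest. Since the cells were measured in bulk, fewer cells with a message and less of it per cell cannot be told apart.

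**Figure D1:**
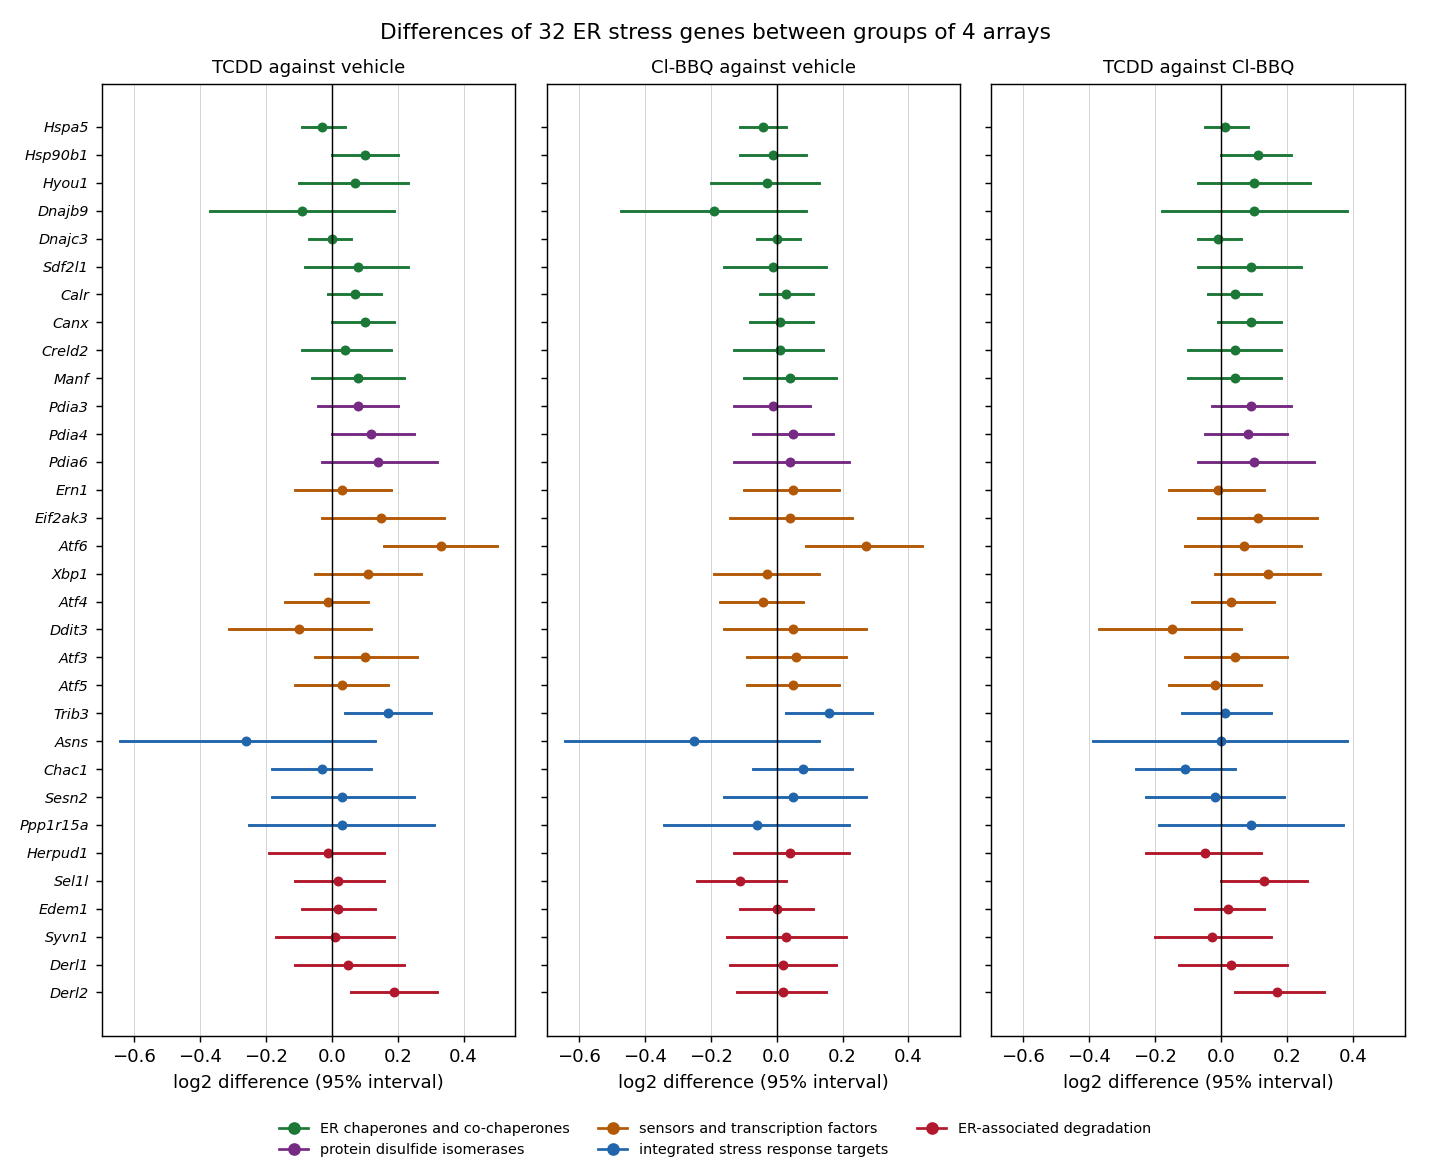
Log2 differences (points) with 95% intervals (lines) from limma for the 32 genes, coloured by role, in the 3 comparisons of 4 against 4 arrays. Most intervals cross 0; that of Atf6 runs from 0.16 to 0.50 with TCDD and from 0.09 to 0.44 with Cl-BBQ, neither called over all genes, and Asns has the widest.

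Atf6 encodes the membrane-bound sensor that becomes a transcription factor once cut, and it stood farthest from vehicle of the 3 sensors with both compounds. Its log2 intensity was 9.35, 9.29, 9.19 and 9.47 in vehicle arrays 1 to 4. It was 9.53, 9.57, 9.76 and 9.75 in TCDD arrays and 9.57, 9.72, 9.51 and 9.56 in Cl-BBQ arrays. Every treated array lay above every vehicle array, and the treated groups overlapped each other. The log2 difference was 0.33 with TCDD (SE 0.08, 1.26-fold; limma adjusted p = 0.0663) and 0.27 with Cl-BBQ (SE 0.08, 1.20-fold; adjusted p = 0.319). TCDD and Cl-BBQ arrays differed by 0.07 (interval −0.11 to 0.24).

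The call of Atf6 with TCDD lay close to the threshold and turned with the setting. It passed under 4 of the 18 alternatives, among them quantile normalization of all 12 arrays (log2 difference 0.36, adjusted p = 0.00959). Weighting the arrays gave an adjusted p of 0.0324, and leaving out vehicle replicate 4 gave 0.0449. Over all 18 alternatives the log2 difference with TCDD ran from 0.29 to 0.38 and the adjusted p from 0.00959 to 0.264. With Cl-BBQ the difference ran from 0.22 to 0.31 and the adjusted p from 0.0864 to 0.728.

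**Figure D2:**
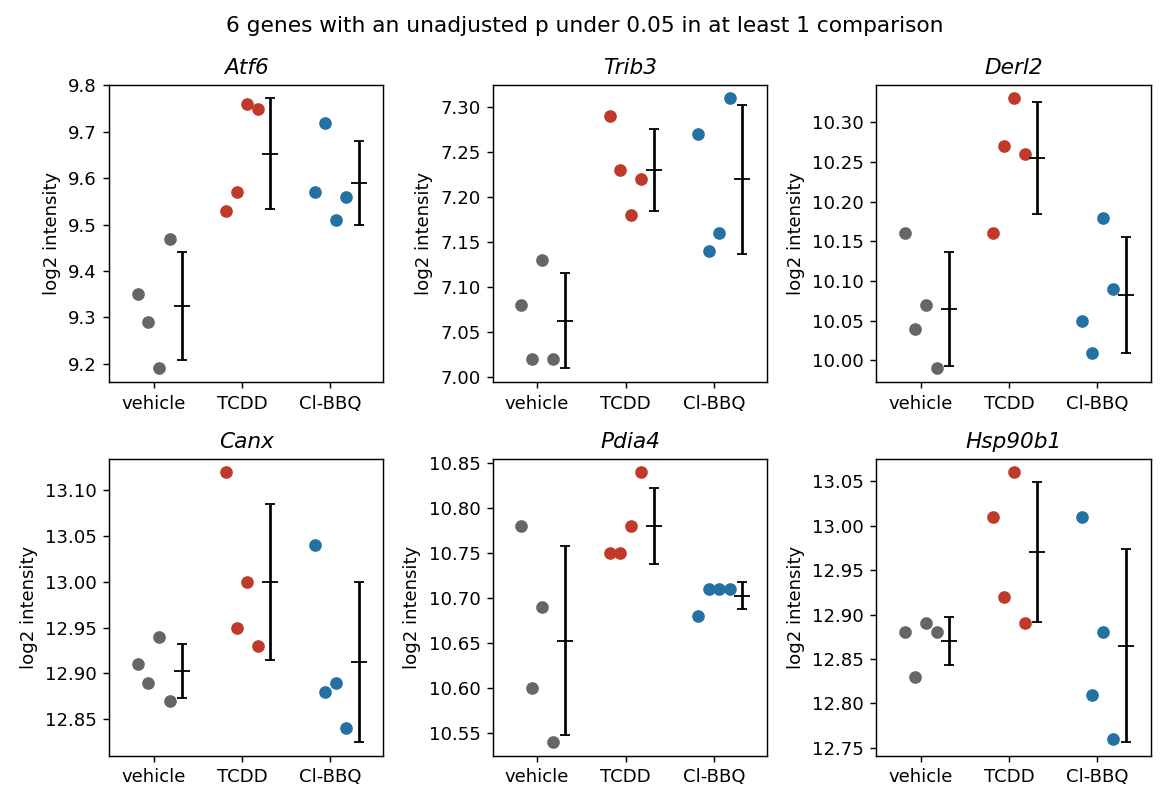
Log2 intensity of 6 genes on each of the 12 arrays (points, in order of replicate number), with mean ± SD of 4 arrays beside each group. The vertical axes differ and do not start at 0. Atf6 and Trib3 lie higher on all treated arrays than on all vehicle arrays. For Derl2 the lowest TCDD and the highest vehicle points meet at 10.16, and the Cl-BBQ points overlap both groups.

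The other sensors lay nearer to vehicle. Eif2ak3 was at 8.80 ± 0.17 with TCDD and 8.65 ± 0.05 with vehicle (log2 difference 0.15, interval −0.03 to 0.34), and at 8.69 ± 0.11 with Cl-BBQ (mean ± SD, n = 4, as below). Its TCDD arrays were 8.56, 8.90, 8.83 and 8.92, so that replicate 1 lay below all vehicle arrays (8.61 to 8.73) and replicates 2 to 4 above them. Ern1 was at 7.26 ± 0.09 in vehicle, 7.29 ± 0.09 in TCDD and 7.31 ± 0.05 in Cl-BBQ arrays, with full overlap of the groups.

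Of the transcription factors, Xbp1 was the narrowest with TCDD. Its 4 TCDD arrays lay between 8.59 and 8.64, its vehicle arrays between 8.42 and 8.60 and its Cl-BBQ arrays between 8.35 and 8.64. The log2 difference was 0.11 with TCDD (interval −0.05 to 0.27) and −0.03 with Cl-BBQ (interval −0.19 to 0.13). Atf4, the central factor of the integrated stress response, was at 10.44 ± 0.08 in vehicle, 10.43 ± 0.06 in TCDD and 10.40 ± 0.05 in Cl-BBQ arrays. Its intervals of −0.14 to 0.11 and −0.17 to 0.08 were among the closest to 0 of this class.

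Ddit3, which encodes the pro-apoptotic factor CHOP, differed in sign between the compounds without a call. It was at 8.53 ± 0.12 with TCDD, 8.68 ± 0.22 with Cl-BBQ and 8.63 ± 0.10 with vehicle. Its Cl-BBQ arrays ran from 8.43 in replicate 1 to 8.96 in replicate 2 and enclosed all vehicle and all but 1 of the TCDD arrays. Atf3 and Atf5, stress-induced factors of the same branch, had log2 differences of 0.10 and 0.03 with TCDD and of 0.06 and 0.05 with Cl-BBQ.

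Of the 10 chaperones, 9 varied by 0.38 or less over the 12 arrays, and Dnajb9 by 0.79. Hspa5, which encodes BiP, the main ER chaperone and the usual readout of the unfolded protein response, was at 12.59, 12.58, 12.60 and 12.62 in vehicle arrays. It was at 12.55, 12.57, 12.58 and 12.59 in TCDD arrays and at 12.59, 12.49, 12.61 and 12.54 in Cl-BBQ arrays. The groups overlapped, and the log2 differences of −0.03 (interval −0.09 to 0.04) and −0.04 (interval −0.11 to 0.03) bound any increase to at most 0.04.

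Of the other chaperones, Hsp90b1, Canx and Calr lay slightly above vehicle with TCDD, without a call. Hsp90b1, which encodes GRP94, was at 12.97 ± 0.08 with TCDD, 12.86 ± 0.11 with Cl-BBQ and 12.87 ± 0.03 with vehicle (log2 difference with TCDD 0.10, limma adjusted p = 0.613). Canx, the membrane-bound lectin chaperone calnexin, was at 13.12, 12.95, 13.00 and 12.93 in TCDD arrays and at 12.91, 12.89, 12.94 and 12.87 in vehicle arrays. Only TCDD replicate 4 lay within the vehicle range, and the log2 difference was 0.10 (adjusted p = 0.543). Its soluble relative Calr (calreticulin) was at 12.36 ± 0.01 with TCDD, 12.32 ± 0.06 with Cl-BBQ and 12.29 ± 0.06 with vehicle.

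The remaining members of this class overlapped between the groups. Hyou1, a large BiP cofactor, Sdf2l1, a partner of BiP, Manf, a secreted ER stress factor, and Creld2 had log2 differences from 0.04 to 0.08 with TCDD and from −0.03 to 0.04 with Cl-BBQ. Dnajc3, a BiP co-chaperone, varied by 0.10 over all 12 arrays, less than any other member. Dnajb9, another BiP co-chaperone, was lowest in Cl-BBQ replicate 1, at 7.82 where the other Cl-BBQ arrays were at 8.38 to 8.52. Its log2 difference was −0.09 with TCDD (interval −0.37 to 0.19) and −0.19 with Cl-BBQ (interval −0.47 to 0.09). Of the 10 chaperones, 7 were above 0 with TCDD and 5 with Cl-BBQ.

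The ER stress element, bound by cut ATF6, is shown for the members whose promoters hold it, since Atf6 was the member farthest from vehicle. Promoter windows of 250 bases before to 50 after the start site (RefSeq, GRCm38.p6) were at hand for 28 of the 32 genes; Atf6, Derl1, Hyou1 and Manf had none. The element was searched on both strands as CCAAT and CCACG separated by 9 bases. It stood in 8 of the 28 genes (28.6%), and in 0.119% of all 32851 windows and 0.115% of the windows of genes on the array. Here and below, members were counted by gene (28 genes with 30 windows) and the background by window. The genes were listed for their part in these stress responses. Their share of this and the other stress elements is thus not independent of the choice of list, and is given as a description. Sites are given in the direction of the element, with its fixed letters in capitals.
Hspa5 (chr2:34772025-34772043, 65 to 47 bases upstream): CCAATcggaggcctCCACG
Hsp90b1 (chr10:86705638-86705656, 212 to 194 bases upstream): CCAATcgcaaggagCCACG
Hsp90b1 (chr10:86705533-86705551, 107 to 89 bases upstream): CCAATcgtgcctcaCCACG
Calr (chr8:84847075-84847093, 162 to 144 bases upstream): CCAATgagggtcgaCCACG
Canx (chr11:50325800-50325818, 145 to 127 bases upstream): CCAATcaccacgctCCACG
Creld2 (chr15:88819520-88819538, 126 to 108 bases upstream): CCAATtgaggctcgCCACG
Dnajc3 (chr14:118937827-118937845, 105 to 87 bases upstream): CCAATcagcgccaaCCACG
Pdia6 (chr12:17266491-17266509, 98 to 80 bases upstream): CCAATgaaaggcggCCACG
Syvn1 (chr19:6046532-6046550, 44 to 26 bases upstream): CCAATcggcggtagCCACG

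All 9 sites lay upstream of the start site, 6 in the direction of the gene (Hspa5, Canx, Dnajc3, Pdia6, Syvn1 and the farther Hsp90b1 site) and 3 against it. Between the fixed letters the sites differed at most positions, with 6 or 7 of the 9 spacer bases being C or G. The 8 genes that hold the element had log2 differences from −0.03 to 0.14 with TCDD (median 0.06) and from −0.04 to 0.04 with Cl-BBQ (median 0.01). The 20 genes with a window but without the element had −0.26 to 0.19 (median 0.03) and −0.25 to 0.16 (median 0.03). The ranges overlapped, and a match is a description of the letters, not a shown binding site.

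Herpud1 held the only match to the shorter ER stress element II (ATTGG and CCACG separated by 1 base), found in 0.0365% of all windows. The match lies at chr8:94386377-94386387 on the plus strand, 52 to 42 bases upstream: ATTGGgCCACG. The core of the AhR response element (GCGTG, either strand) was in 19 of the 28 genes (67.9%), against 32.4% of all windows and 40.9% of those of genes on the array. It overlapped 4 of the 9 ER stress element sites, those of Calr, Canx and Hsp90b1, so these counts are not independent. The base content of the windows was not compared, and the difference in share was not tested.

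The protein disulfide isomerases, which form and correct disulfide bonds in the ER, were all above vehicle with TCDD without a call. Pdia4 was at 10.75, 10.75, 10.78 and 10.84 in TCDD arrays, 10.78, 10.60, 10.69 and 10.54 in vehicle arrays and 10.68 to 10.71 in Cl-BBQ arrays. Vehicle replicate 1 lay within the TCDD range and the other vehicle arrays below it (log2 difference 0.12, limma adjusted p = 0.551). Pdia6 was at 10.54 ± 0.05 with TCDD against 10.40 ± 0.19 with vehicle, where replicate 2 lay at 10.17 and replicate 1 at 10.63. Pdia3, which works on glycoproteins together with calnexin and calreticulin, was at 12.62 ± 0.06 with TCDD, 12.53 ± 0.11 with Cl-BBQ and 12.55 ± 0.10 with vehicle.

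Among the integrated stress response targets, Trib3 was the one whose treated arrays lay apart from vehicle. Trib3 encodes a pseudokinase induced by Atf4 and CHOP. It was at 7.08, 7.02, 7.13 and 7.02 in vehicle arrays, 7.29, 7.23, 7.18 and 7.22 in TCDD arrays and 7.27, 7.14, 7.16 and 7.31 in Cl-BBQ arrays. All 8 treated arrays were above all vehicle arrays, by 0.01 for the closest pair, Cl-BBQ replicate 2 and vehicle replicate 3. The log2 difference was 0.17 with TCDD (SE 0.06, 1.13-fold; limma adjusted p = 0.34) and 0.16 with Cl-BBQ (SE 0.06, 1.11-fold; adjusted p = 0.539).

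The Trib3 window is shown because the gene lay apart from vehicle with both compounds and because it holds matches to a pair of the motifs searched. It covers chr2:152344011-152344310 (GRCm38.p6, RefSeq) and is printed on the gene's own minus strand, with the matches in capitals.
Trib3: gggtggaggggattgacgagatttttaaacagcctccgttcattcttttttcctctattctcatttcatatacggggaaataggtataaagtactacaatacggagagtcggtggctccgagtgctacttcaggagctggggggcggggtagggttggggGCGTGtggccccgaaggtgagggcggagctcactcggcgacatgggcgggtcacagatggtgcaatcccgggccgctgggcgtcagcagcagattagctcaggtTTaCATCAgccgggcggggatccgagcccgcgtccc

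The first match is the AhR core, at bases 161 to 165 of the window. The second, at bases 265 to 272 and thus just past the start site, is the core of the amino acid response element, to which Atf4 binds. It was searched as TGATG and AA separated by 1 base and reads in the opposite direction here. That core was in 5 of the 28 genes (17.9%: Asns, Atf3, Chac1, Herpud1 and Trib3), against 3.97% of all windows. All 5 also held the AhR core, so the pair is not particular to Trib3. With TCDD the log2 differences of these 5 genes ran from −0.26 for Asns to 0.17 for Trib3. The genes that share both motifs thus lay on both sides of 0.

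Asns, the asparagine synthetase induced by amino acid shortage, had the widest spread of the list. It was at 8.76, 8.03, 8.30 and 8.66 in vehicle arrays, 8.10, 8.26, 8.02 and 8.33 in TCDD arrays and 8.71, 8.10, 8.22 and 7.70 in Cl-BBQ arrays. The groups overlapped throughout, and the log2 differences of −0.26 and −0.25 had intervals of −0.64 to 0.13 in both comparisons. Chac1, which degrades glutathione, Sesn2, a stress-induced inhibitor of mTORC1 signalling, and Ppp1r15a, the phosphatase subunit GADD34 that restores translation, had log2 differences from −0.03 to 0.03 with TCDD and from −0.06 to 0.08 with Cl-BBQ. Ppp1r15a ranged over 0.80, from 7.59 in Cl-BBQ replicate 1 to 8.40 in TCDD replicate 4.

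In the ERAD class, Derl2 differed from vehicle with TCDD and hardly with Cl-BBQ, without a call. Derl2 encodes derlin-2, a membrane protein that helps to move misfolded proteins out of the ER. It was at 10.16, 10.27, 10.33 and 10.26 in TCDD arrays and at 10.16, 10.04, 10.07 and 9.99 in vehicle arrays, so that the lowest TCDD and the highest vehicle array both rounded to 10.16. In Cl-BBQ arrays it was at 10.05, 10.01, 10.18 and 10.09, overlapping both. The log2 difference was 0.19 with TCDD (SE 0.06, 1.14-fold; limma adjusted p = 0.266) and 0.02 with Cl-BBQ (interval −0.12 to 0.15).

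The other ERAD genes lay within 0.05 of vehicle with TCDD. These were Herpud1, an ER stress-induced organiser of the ERAD complex, Sel1l and Syvn1, the adaptor and ubiquitin ligase at its centre, Edem1, a lectin that selects glycoproteins, and Derl1, the relative of Derl2. With Cl-BBQ, Sel1l was at 10.15 ± 0.08 against 10.26 ± 0.08 (log2 difference −0.11, interval −0.24 to 0.03), and the other 4 lay within 0.04 of vehicle.

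Counted by array, 3 of the 32 genes (Atf6, Trib3 and Derl2) were higher on all TCDD than on all vehicle arrays, against 3.15% of all genes, and 0 were lower on all, against 2.65%. With Cl-BBQ, Atf6 and Trib3 were higher on all arrays, against 2.27% of all genes, and 0 lower, against 1.58%. The compounds share the vehicle arrays, so the recurrence of Atf6 and Trib3 is not independent. Against vehicle, 16 genes were higher in the mean with both compounds, 4 were lower with both and 12 differed in sign.

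The comparison of TCDD with Cl-BBQ asks where the compounds differed at their own doses and schedules. No ER stress gene was called, against 0.0150% of all genes, and every adjusted p of the list rounded to 1. Derl2 (log2 difference 0.17, interval 0.04 to 0.31) and Hsp90b1 (0.11, interval 0.00 to 0.21) had an unadjusted p under 0.05, where 2.99% of all genes did. Pdia4 was higher on all TCDD arrays than on all Cl-BBQ arrays (10.75 to 10.84 against 10.68 to 10.71), against 1.24% of all genes, and 0 genes were lower on all, against 0.797%. That separation was read from 1 of the 2 probe sets of Pdia4. Over the 18 alternatives its log2 difference between the compounds ran from 0.00 to 0.10 and kept its sign in 17.

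The chaperones and isomerases lay mostly higher with TCDD than with Cl-BBQ: 9 of 10 chaperones and 3 of 3 isomerases were above 0, with medians of 0.06 and 0.09. Over the list 23 of 32 were above 0 (71.9%, against 48.0% of all genes). Under the alternatives this count ran from 21, without Cl-BBQ replicate 1 or without TCDD replicate 4, to 28 after centring each array on its median. That centring also moved the median of all genes from 0.00 to 0.02. The share of all genes above 0 was counted in the main fit only. All 32 intervals lay within 0.5 of 0, with bounds of 1.30-fold higher for Dnajb9 and Asns and 1.31-fold lower for Asns. The deviations of same-numbered TCDD and Cl-BBQ arrays from their group means correlated at 0.606, 0.113, 0.157 and 0.365. Arrays of different number were not compared, so pairing by number was not tested. A fit with the replicate number as a block called 5 genes in place of 3 over the table, and again 0 of the 32.

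Most ERAD genes, and many other genes of the pathway, were at their lowest on the same 3 arrays. In Cl-BBQ replicate 1, TCDD replicate 1 and vehicle replicate 3, 5 of the 6 ERAD genes were each at their lowest of the group's 4 arrays. The same 3 arrays were lowest for 51.6%, 55.8% and 44.2% of the 95 other pathway genes described below, and for 35.2%, 32.3% and 30.1% of all genes. Of the 8 sensors and transcription factors, 5 were at their lowest in TCDD replicate 1 and 5 in vehicle replicate 3, and 1 in Cl-BBQ replicate 1. They were also the arrays with the highest overall median of their groups, at 7.24, 7.20 and 7.22, where the next array in each group was at 7.17 to 7.19. Canx was at its highest in the same 3 arrays, at 13.04, 13.12 and 12.94. The arrays were singled out after their values were seen, and the part of overall intensity in these values was not tested.

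Of the 10 chaperones, 6 were at their lowest in TCDD replicate 1, but 2 in Cl-BBQ replicate 1 and 1 in vehicle replicate 3. In vehicle replicate 2, 8 of 10 chaperones and 2 of 3 isomerases were at the lowest of their group, against 21.1% of all genes, with Hyou1 at 9.42 and Pdia6 at 10.17. In vehicle replicate 1, 15 of the 32 genes were at the highest of their group, against 24.9% of all genes. The within-group SD of the 32 genes ran from 0.03 to 0.32 with a median of 0.09, and 27 of the 32 varied by less than 0.5 over all 12 arrays. Without the 3 arrays of the highest median, 0 of the 32 were called in any comparison, and Atf6 differed from vehicle by 0.33 with TCDD (adjusted p = 0.0824) and by 0.23 with Cl-BBQ (adjusted p = 0.366).

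**Figure D3:**
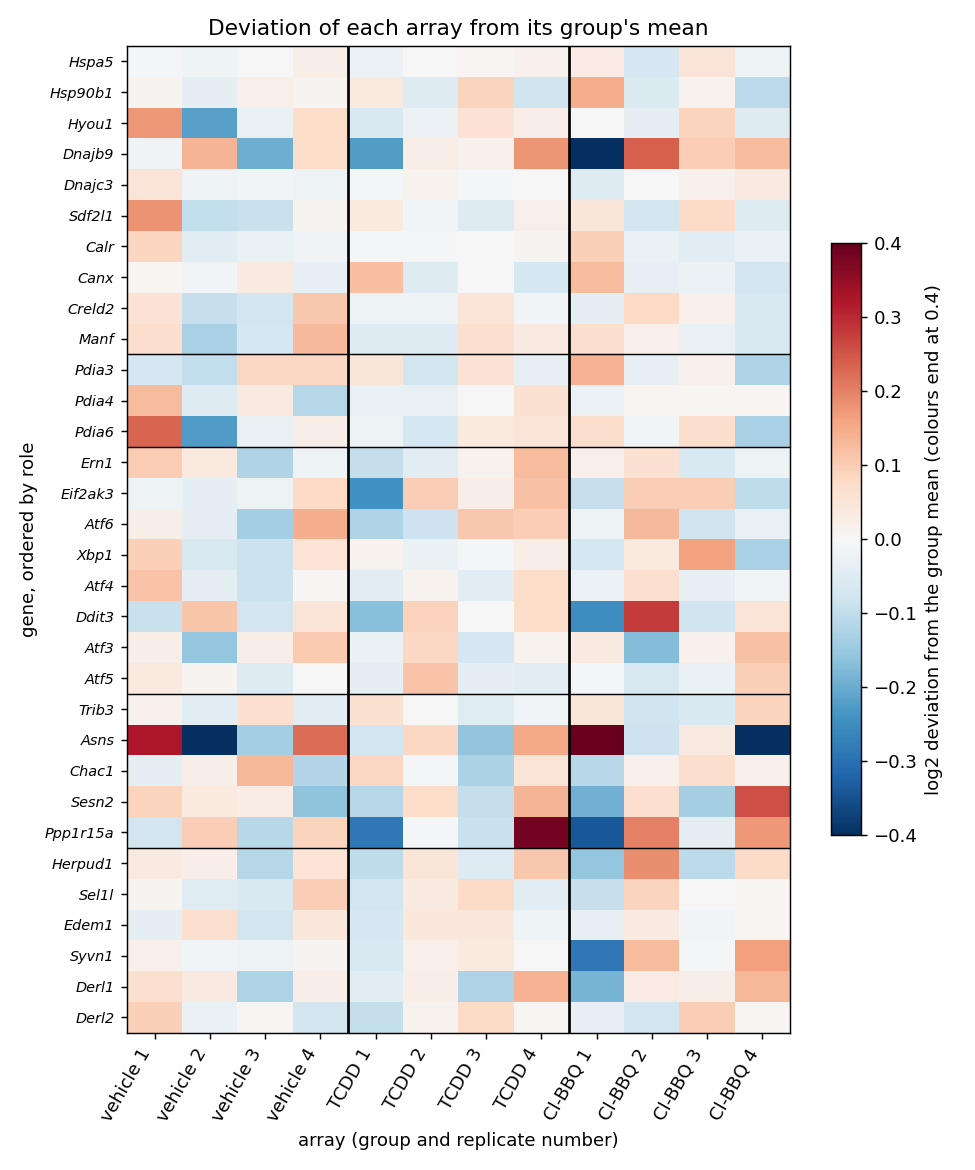
Log2 deviation of each array from the mean of its group (colour, red higher and blue lower, ending at 0.4) for the 32 genes by role (horizontal lines part the roles, vertical lines the groups). Cl-BBQ replicate 1, TCDD replicate 1 and vehicle replicate 3 are blue for most ERAD genes at the bottom, and vehicle replicate 2 is blue for most chaperones at the top.

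No other listed gene of the pathway passed the test. Of 95 measured genes of ER folding, translocation, ERAD and the integrated stress response, 0 were called in the 3 comparisons, and 10, 4 and 3 had an unadjusted p under 0.05 with TCDD, with Cl-BBQ and between them. These are 10.5%, 4.21% and 3.16% of the 95, against 8.69%, 7.91% and 2.99% of all genes. Their median log2 differences were 0.01, 0.00 and 0.02. The smallest limma adjusted p of the 95 with TCDD was 0.0748, for a gene of ER folding and oxidation. With TCDD, where 52.1% of all genes were above 0, so were 19 of 21 genes of ER translocation and glycan transfer (90.5%, median 0.06) and 14 of 19 of ER folding and oxidation (73.7%, median 0.03). Of the genes of ERAD and signalling, 15 of 26 were above 0 (57.7%, median 0.01), and of the integrated stress response 13 of 29 (44.8%, median 0.00).

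With TCDD the highest of the 95 were Nupr1, a stress-induced nuclear protein, at 7.18 ± 0.09 against 6.94 ± 0.09 (log2 difference 0.24, adjusted p = 0.113), and Fkbp2, an ER prolyl isomerase, at a log2 difference of 0.22 (adjusted p = 0.238). The lowest were Eif2ak4, the amino acid sensor kinase GCN2, at 8.06 ± 0.04 against 8.25 ± 0.13 (log2 difference −0.20, adjusted p = 0.321), and Slc7a5, an amino acid transporter chain, at −0.22 (adjusted p = 0.701). With Cl-BBQ the highest were Os9, an ERAD lectin, at 0.18, and Ppib, an ER prolyl isomerase, at 0.17, and the lowest Shmt2, a mitochondrial enzyme of serine metabolism, at −0.21, and Slc7a5 at −0.22. Between the compounds, Fkbp2 (0.16) and Gadd45a (0.15) were the highest and Sil1 (−0.12), a BiP exchange factor, and Erp27 (−0.18) the lowest.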

How the data were processed

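The deposited table holds log2 intensities, which the authors made by RMA (robust multi-array average) according to the submitters' processing notes. The log2 scale was read from the values (2.49 to 14.2). The sources used here do not give the software version, the probe library or the set of arrays that RMA was run on. Of 35556 probe sets, 21789 carried 1 gene symbol, 1621 several, and 12146 were not listed; per gene the probe set with the highest mean was kept (19938 genes). Of the 32 members, 2 (Dnajc3 and Pdia4) had more than 1 probe set.

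A single limma fit (version 3.58.1, R 4.3.3) held all 3 groups (9 residual degrees of freedom, intensity trend, two-sided), adjusted by Benjamini-Hochberg over all genes and called under 0.05; the code was tested on simulated data. For arrays, their number limits the precision. Members, lists and tests were chosen with earlier results of these data known. The genes named were all members and, of 95 other pathway genes (of 101 listed), the 2 highest and 2 lowest per comparison; those singled out otherwise were chosen after their values were seen. Labels call the arrays of a group biological replicates. The deviations of same-numbered TCDD and Cl-BBQ arrays correlated at 0.606, 0.113, 0.157 and 0.365, all over 0.1. Correlations over 0.1 were also found for 2 of 4 pairs of TCDD and 0 of 4 pairs of Cl-BBQ with vehicle. Arrays of different number were not compared, so pairing by number was not tested. Figures used matplotlib 3.10.9. Protein sequences were not used here.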

Additional observations from a re-analysis of the deposited data

Results flagged for a closer look

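For each of the 32 genes and 3 groups, the highest or lowest of the 4 arrays was compared with its nearest neighbour by Dixon's ratio at the 95% level. Of 96 groups tested, 5 passed, and chance alone flags about 1 in 20. Hsp90b1 was low in vehicle replicate 2, at 12.83 where the other 3 arrays were at 12.88 to 12.89. Dnajc3 was high in vehicle replicate 1, at 12.57 against 12.50 to 12.51. Calr was high in Cl-BBQ replicate 1, at 12.41 against 12.27 to 12.29, and Pdia4 was low in the same array, at 10.68 against 10.71 in the others. Atf5 was high in TCDD replicate 2, at 8.55 against 8.39 to 8.40. All 5 gaps were small on the log2 scale, and the cause was not tested.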

How the results depend on the processing

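With TCDD, 247 genes were called. The count was 160 after centring each array on its median, 391 with array weights and 397 with the replicate number as a block; leaving out each replicate in turn gave 150 (without TCDD replicate 3) to 227. Members called with TCDD were 1, namely Atf6, after quantile normalization, with array weights, with the replicate block (adjusted p = 0.0483) and without vehicle replicate 4, and 0 otherwise (0 to 1 leaving out each replicate). With Cl-BBQ, 39 genes were called: 8 after median centring, 71 after quantile normalization, 18 without an intensity trend, 11 from the 2 groups alone, 0 when probe sets were tested singly (1577 genes had an unadjusted p under 0.05 in limma), 111 with the replicate block and 64 without the arrays of the highest median. Leaving out each replicate gave 3 to 61: 61 without Cl-BBQ replicate 1, 3 without its replicate 2, 16 without its replicate 4, and 9 and 4 when vehicle replicate 1 or 4 was dropped. Between the compounds 3 genes were called: 0 after quantile normalization, without a trend, from the 2 groups alone and with probe sets tested singly, 9 with array weights, 5 with the replicate block, 8 without the arrays of the highest median, and 0 to 7 leaving out each replicate (7 without Cl-BBQ replicate 1, 1 without Cl-BBQ replicate 3, 0 without any TCDD replicate or Cl-BBQ replicate 4). The median log2 difference of the members ran from 0.03 to 0.07 with TCDD, from 0.00 (after median centring) to 0.04 with Cl-BBQ and from 0.03 to 0.07 between the compounds. No member was called with Cl-BBQ or between the compounds in any setting. Over 1728 member values under alternatives, 118 changed sign and 0 of these were called. Leaving out the arrays of the highest median was chosen after seeing the data. The cause of these changes was not tested. No label says that a replicate number marks a common litter or day.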
